A study of Mus musculus with 4 samples.

Results

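The genes described here are 8 cardiac transcription factors (Nkx2-5, Gata4, Tbx5, Tbx20, Hand1, Hand2, Mef2c and Isl1) and the 2 natriuretic peptides of the heart chambers, Nppa and Nppb. Every probe that the array design assigns to 1 of these 10 gene symbols and that is not a control was taken. These were 19 of 41174 gene probes, and 14 of the 19 passed the filter on dim signals, at least 1 for each of the 10 genes. The full test covered 17160 genes, each represented by its brightest probe.

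The study compared NRX-/- with NRX+/+ C57BL/6J mouse embryos at embryonic day 9.5 (E9.5) and at E11.5. NRX is nucleoredoxin, a thioredoxin-related protein encoded by Nxn, and the series title places it in Wnt/β-catenin signalling. Total RNA of both genotypes was hybridised together on 4 two-colour oligonucleotide arrays, 2 per stage with the dyes exchanged: in replicate 1 of each stage the null RNA carried Cy5, in replicate 2 it carried Cy3. The labels describe no treatment and do not state how the null allele was made, how many embryos were pooled, their sex, or whether yolk sac was removed. The array titles call the null RNA KD, while the genotype fields give NRX -/-. Separate RNA extracts for the paired arrays are not stated in the labels, so the spread between them may be technical, and p-values compare the RNAs that were hybridised rather than genotypes.

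Nkx2-5, GATA4, TBX5, TBX20, MEF2C and the HAND factors form the regulatory core of heart development: they bind DNA as partners, activate one another's genes and switch on the contractile programme. ISL1 marks the second heart field, the progenitors that add the outflow tract and right ventricle, and is also made in motor and sensory neurons. Nppa (atrial natriuretic peptide) and Nppb (brain natriuretic peptide) are neighbouring genes that embryonic chamber muscle expresses strongly, and the Nppa promoter is a textbook target of NKX2-5, GATA4 and TBX5 acting together.

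The 3 promoters below belong to the members whose ratio differed between the stages. They are the 250 bases before the annotated start in RefSeq (build GRCm38.p6), 5′ to 3′ on the strand of the gene: Nppa at chr4:148000472-148000721 on the plus strand, Nppb at chr4:147985650-147985899 on the plus strand, and Nkx2-5 at chr17:26841566-26841815 on the minus strand. Capitals mark matches, on either strand, to a T-box motif (TCACACCT), an NKX2-5 element (AAGTG) and a GATA motif (GATA); none of the capitals overlap.
Nppa: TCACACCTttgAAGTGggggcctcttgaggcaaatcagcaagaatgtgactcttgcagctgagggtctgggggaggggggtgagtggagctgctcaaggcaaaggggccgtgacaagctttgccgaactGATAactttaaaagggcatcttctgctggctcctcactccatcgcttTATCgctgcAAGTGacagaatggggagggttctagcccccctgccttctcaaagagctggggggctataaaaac
Nppb: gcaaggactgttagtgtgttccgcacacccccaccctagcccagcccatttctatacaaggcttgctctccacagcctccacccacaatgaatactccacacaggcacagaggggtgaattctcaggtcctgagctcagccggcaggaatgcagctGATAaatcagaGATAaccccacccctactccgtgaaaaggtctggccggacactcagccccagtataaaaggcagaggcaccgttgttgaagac
Nkx2-5: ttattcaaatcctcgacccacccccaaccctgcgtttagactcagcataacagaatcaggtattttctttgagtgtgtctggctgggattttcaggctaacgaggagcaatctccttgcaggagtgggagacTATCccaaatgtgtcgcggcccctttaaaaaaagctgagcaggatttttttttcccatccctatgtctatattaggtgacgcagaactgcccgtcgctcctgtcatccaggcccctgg

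The Nppa window held all 3 motifs: 1 T-box match at its first 8 bases, from 250 to 243 bases before the start, 2 NKX2-5 elements and 2 GATA matches. The Nppb window held 2 GATA matches, and the Nkx2-5 window held 1. Among the other members with a sequence, Hand2 and each of the 3 Mef2c windows held 1 NKX2-5 element and 2 GATA matches, Isl1 held 1 GATA match, and Tbx20 held none of the 3 motifs. Over 32851 promoter windows of this length, the T-box motif occurred in 1.12%, the NKX2-5 element in 40.7% and GATA in 53.6%, so the shorter motifs are common. The E-box CANNTG, bound by HAND factors with their partners, was found 2 times in Nppa, 1 time in Nppb and 1 time in Nkx2-5, and in 66.2% of all windows. Sequences were matched for 7 of the 10 members; Gata4, Tbx5 and Hand1 are named only. A match describes these letters and is not a measured binding site.

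The targeted gene was lower in the null RNA on every array. The 2 Nxn probes gave log2 ratios of null over wild type of -0.77 and -1.04 on E9.5 replicate 1 and -0.85 and -0.93 on E9.5 replicate 2. At E11.5 they gave -1.18 and -1.24 on replicate 1 and -1.13 and -1.42 on replicate 2. Whether either probe lies within the altered part of the gene is not stated. Between 48.2% and 70.3% of gene probes per channel were well above background. Across the tested genes, log2 ratios of the paired arrays correlated with r = 0.48 for E9.5 and 0.26 for the later stage. Arrays of different stages with the same dye orientation correlated with r = 0.34 (null in Cy5) and 0.36 (null in Cy3), above the value for the paired E11.5 arrays. In 10 of the 19 member probes the signal was well above background in all 8 channels.

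At E9.5, 6 of the 10 genes were lower in the null RNA and 0 were higher (limma, adjusted p under 0.05): Nppa, Nppb, Nkx2-5, Tbx20, Hand1 and Mef2c. Among all 17160 genes, 14.8% were called lower and 9.88% higher at this stage. The median log2 ratio was -0.22 over the 10 members and -0.00078 over all genes. At E11.5, 2 members, Nppa and Nppb, were called higher and 0 lower, against 3.67% of all genes called higher and 5.64% lower; the members' median was 0.09 and that of all genes 0.0072. RNA came from many tissues at once, so fewer cells of a type and less RNA per cell cannot be told apart.

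**Figure D1:**
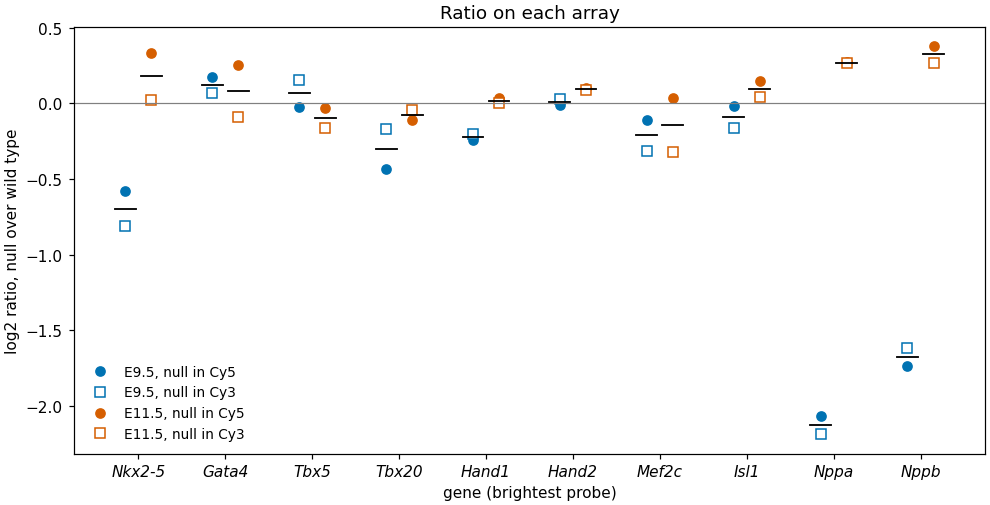
The plot shows the log2 ratio of null over wild type on each of the 4 arrays for the brightest probe of each member; circles are arrays with the null RNA in Cy5, squares arrays with it in Cy3, and bars the mean of a stage. Nppa, Nppb and Nkx2-5 lie well below 0 at E9.5, from -2.19 to -0.58, and above 0 at E11.5.

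Nppa, the peptide that embryonic atrial and ventricular muscle secretes, had the lowest E9.5 ratio of the members in the main processing. With its brightest probe (A_52_P580582) the log2 level at E9.5 was 10.46 and 10.25 in the null RNA against 12.53 and 12.43 in wild type. At E11.5 it was 12.99 and 13.00 in the null RNA against 12.72 and 12.74 in wild type. The groups did not overlap at either stage, with the null RNA below at E9.5 and above at E11.5. The E9.5 log2 ratio was -2.13 (SE 0.06; limma adjusted p = 4.53e-16), which leaves 22.9% of the wild-type level, and ranked 34 from the lowest of all genes. The E11.5 ratio was 0.27 (SE 0.06; adjusted p = 0.00738), a level of 120.3% of wild type. A second Nppa probe (A_51_P361340) gave -2.01 and -1.71 on the E9.5 arrays and 0.13 and 0.43 on the E11.5 arrays.

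Both Nppa probes were printed 10 times on each array, so that spot error can be seen directly. The 10 spots of A_52_P580582 ranged from -2.14 to -2.00 on E9.5 replicate 1 and from -2.36 to -2.11 on E9.5 replicate 2. On the E11.5 arrays they ranged from 0.24 to 0.36 and from 0.18 to 0.31. Every one of these spots was below 0 at E9.5 and above 0 at E11.5. For A_51_P361340 the E9.5 spots ranged from -2.07 to -1.92 and from -1.90 to -1.45, so the spots of the 2 arrays lay close to each other without overlap. The spots are repeats of 1 hybridisation and were averaged before any test.

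**Figure D2:**
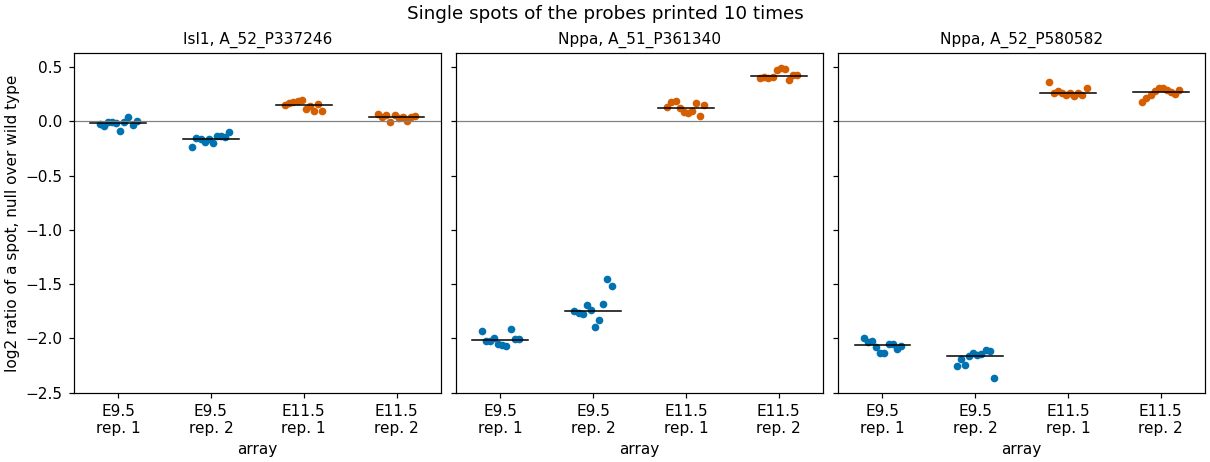
Each point is the log2 ratio of null over wild type at 1 spot of a probe printed 10 times, by array, for Isl1 and for both Nppa probes, with a bar at the median. Spots of 1 array lie close together, and Nppa spots are separated by stage while Isl1 spots stay between -0.24 and 0.19.

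Nppb, the second chamber peptide, was likewise lower in the null RNA at E9.5 and higher at E11.5. Its brightest probe (A_51_P426195) had log2 levels of 7.72 and 7.95 in the null RNA and 9.45 and 9.56 in wild type at E9.5. At E11.5 the null RNA had 9.31 and 9.35 and wild type 8.94 and 9.08. Null and wild type did not overlap at either stage. The log2 ratio was -1.67 at E9.5 (SE 0.06; limma adjusted p = 6.08e-14), or 31.3% of wild type, and 0.32 at E11.5 (SE 0.06; adjusted p = 0.00194), or 125.0%. The dimmer of the 2 Nppb probes (A_52_P559955) gave -1.03 and -1.34 on the E9.5 arrays, then 0.22 and 0.18 on those of E11.5; tested alone, its E11.5 ratio of 0.20 had an adjusted p of 0.0732.

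The E9.5 calls of Nppa and Nppb held in all 14 alternative settings in which each was fitted, with log2 ratios from -2.19 to -1.99 and from -2.35 to -1.43. Which of the 2 was further from 0 turned with the processing: with the authors' value table the E9.5 ratio was -2.18 for Nppa and -2.35 for Nppb. Their E11.5 calls did not: without a dye term in the fit the adjusted p was 0.595 for Nppa and 0.477 for Nppb. Leaving out any 1 of the 4 arrays, which also removes the dye term, ended both calls, with adjusted p from 0.601 to 1 for Nppa and from 0.394 to 1 for Nppb.

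Nkx2-5, the homeobox factor that marks cardiac progenitors and muscle, was the transcription factor with the lowest E9.5 ratio. Its 1 probe had E9.5 log2 levels of 8.79 and 8.58 in the null RNA and 9.36 and 9.39 in wild type, with no overlap. At E11.5 the levels were 8.87 and 8.70 in the null RNA and 8.54 and 8.68 in wild type, so that the null RNA was the higher by 0.33 on replicate 1 and by 0.02 on replicate 2. The E9.5 ratio was -0.70 (SE 0.06; limma adjusted p = 3.67e-08), 61.7% of wild type. The E11.5 ratio of 0.18 was not called (adjusted p = 0.0879). Without E9.5 replicate 2 the E9.5 ratio was -0.58 with an adjusted p of 0.157.

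Among the T-box factors, Tbx20, which is needed for chamber growth, had log2 ratios of -0.44 and -0.17 on the E9.5 arrays and -0.11 and -0.05 on the E11.5 arrays with its brightest probe (A_51_P427619). The E9.5 mean of -0.30 was called lower (SE 0.06; limma adjusted p = 0.00147). A second tested Tbx20 probe (A_52_P429876) gave -0.15 and -0.50 at E9.5, a mean of -0.33, and the other 2 Tbx20 probes were not well above background on any array. Tbx5, a driver of atrial and left ventricular genes that the forelimb bud also makes, gave -0.02 and 0.16 on the E9.5 arrays, then -0.03 and -0.17 on those of E11.5. Its ratios of 0.07 and -0.10 were not called (95% intervals -0.07 to 0.21 and -0.24 to 0.04), and its second probe was too dim to test. The brighter Tbx20 probe was well above background in wild type on 1 of the 2 E11.5 arrays.

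Gata4, the zinc finger partner of NKX2-5 and TBX5, gave 0.17 and 0.07 on the E9.5 arrays, then 0.25 and -0.09 on those of E11.5. Neither mean was called, with 0.12 at E9.5 (95% interval -0.02 to 0.25; limma adjusted p = 0.20) and 0.08 at E11.5 (-0.05 to 0.22). Its signal was dim, with log2 levels between 7.51 and 7.80 over all 8 channels, and the second Gata4 probe, printed 10 times per array, was never well above background. Mef2c, a MADS-box factor of heart and skeletal muscle, vessels and neurons, gave -0.11 and -0.31 on the E9.5 arrays, then 0.04 and -0.32 on those of E11.5. The E9.5 mean of -0.21 was called (SE 0.06; adjusted p = 0.019) and the E11.5 mean of -0.14 was not (adjusted p = 0.208). In both stages the array with the null RNA in Cy3 gave the lower Mef2c ratio. A second Mef2c probe was never well above background.

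The HAND proteins are basic helix-loop-helix factors of the ventricles. Hand1, found in the left ventricle, lateral mesoderm and extraembryonic tissue, gave -0.24 and -0.20 at E9.5, a mean of -0.22 (SE 0.06; limma adjusted p = 0.0119), and 0.03 and 0.00 at E11.5. Hand2, found in the right ventricle, branchial arches and limb, gave -0.01 and 0.03 on the E9.5 arrays, then 0.10 and 0.09 on those of E11.5. Its 95% interval at E9.5 was -0.12 to 0.14, and its second probe gave a mean of -0.03. Hand2 was not called at either stage.

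Isl1, measured by 1 probe printed 10 times per array, gave -0.02 and -0.16 on the E9.5 arrays, then 0.15 and 0.04 on those of E11.5. The stage means, -0.09 and then 0.09, were not called (95% intervals -0.22 to 0.04 and -0.04 to 0.22). Its log2 level lay between 10.21 and 10.73 in all 8 channels. Neuron markers, which overlap with Isl1 in tissue, had a summed linear single-channel level of 15600 to 16200 in the null RNA at E9.5. In wild type it was 11100 to 11800. At that stage 4 of 10 tested neuron markers were called higher, against 9.88% of all genes. The part of neurons in the Isl1 ratio was not tested.

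The calls of Tbx20, Hand1 and Mef2c at E9.5 did not hold in every setting. With no dye term the ratios were the same and their adjusted p was 0.270, 0.322 and 0.567. With the authors' value table it was 0.0552, 0.120 and 0.116, and with the Feature Extraction log ratio it was 0.114 for Hand1 and 0.110 for Mef2c, while Tbx20 was called. None of the 3 was called after leaving out any 1 array or with median centring of the arrays. With no dye term, median centring or the authors' value table, the members called at E9.5 were Nkx2-5, Nppa and Nppb, and without E9.5 replicate 2 Nppa and Nppb alone.

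The ratio itself was compared between stages, as E11.5 minus E9.5. It rose in 3 of 10 members and fell in 0, while 8.32% of all genes were called higher. The difference was 2.39 for Nppa (SE 0.09; limma adjusted p = 4.49e-14), 2.00 for Nppb (SE 0.09; adjusted p = 1.53e-12) and 0.87 for Nkx2-5 (SE 0.09; adjusted p = 3.67e-07). For Hand1 and Mef2c, called lower at E9.5, the difference was 0.24 and 0.07 and was not called (adjusted p = 0.0795 and 0.689). For Tbx20 the call turned on the probe: the difference was 0.22 with the brightest probe (adjusted p = 0.118), 0.38 with the second tested probe (adjusted p = 0.00981) and 0.30 with the mean of both (adjusted p = 0.033). For Nkx2-5 the difference was not called without the dye term (adjusted p = 0.121) or without any 1 array, where it ranged from 0.72 to 1.03 with adjusted p from 0.0573 to 0.459.

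An effect common to both stages was tested on the 2 stage averages. It called 0 of 10 members, and 0% of all genes, with limma at an adjusted p under 0.05. The lowest limma adjusted p was 0.690 among members and 0.395 among all genes. This test on 2 values per gene called no gene at all, so it cannot tell whether the members lack a shared effect. At an unadjusted p under 0.05 it counted 1 member, Mef2c, with a mean ratio of -0.18, and 1240 of all genes. With the 4 arrays taken as separate measurements, 45 genes were called and 0 members.

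The level between stages was compared with the 2 genotypes as replicates, in single channels normalised to a common average. At E9.5 Tbx5 had log2 levels of 9.73 and 9.62 in the null RNA and 9.75 and 9.46 in wild type, and at E11.5 10.59 and 10.29 against 10.62 and 10.45, with no overlap of stages. Tbx5 was thus higher at E11.5, by 0.85 on the log2 scale (SE 0.07; limma adjusted p = 0.00717). Hand1 had 9.47 and 9.19 in the null RNA and 9.72 and 9.39 in wild type at E9.5, and lay between 8.45 and 8.48 in all 4 channels at the later stage. It was lower there, with a difference of -0.98 (SE 0.09; adjusted p = 0.0073), and so was Tbx20, with -0.33 (SE 0.08; adjusted p = 0.0424). The share of all genes called was 21% higher and 21.1% lower, so that 1 of 10 and 2 of 10 are no more than the background. These p-values are too small, because an effect shared by both channels of an array does not enter the error. Tbx20 was not called with the mean of its probes (-0.26; adjusted p = 0.101), nor without E9.5 replicate 2 (0.124), E11.5 replicate 1 (0.0627) or E11.5 replicate 2 (0.0509).

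For Nppa, Nppb and Nkx2-5 the change of level over time differed between genotypes, as the tested stage difference of their ratio gives it in another form. In wild type the log2 level changed from E9.5 to E11.5 by 0.25 for Nppa, -0.50 for Nppb and -0.77 for Nkx2-5. In the null RNA it changed by 2.641, 1.499 and 0.1037. Tbx5 changed by 0.93 in wild type and 0.77 in the null RNA, and Hand1 by -1.10 and -0.86. Gata4, Hand2, Mef2c and Isl1 changed by values between -0.27 and 0.26 in both genotypes. Of the 4 group means of Nppa, the null RNA at E9.5 was lowest (10.36 ± 0.15, SD, n = 2 arrays), followed by wild type at E9.5 (12.48 ± 0.07), wild type at E11.5 (12.73 ± 0.01) and the null RNA at E11.5 (13.00 ± 0.01). For Nkx2-5 the order was wild type at E11.5 (8.61 ± 0.10), null at E9.5 (8.68 ± 0.14), null at E11.5 (8.79 ± 0.12) and wild type at E9.5 (9.38 ± 0.02), of which neighbours among the first 3 did not differ beyond their spread.

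**Figure D3:**
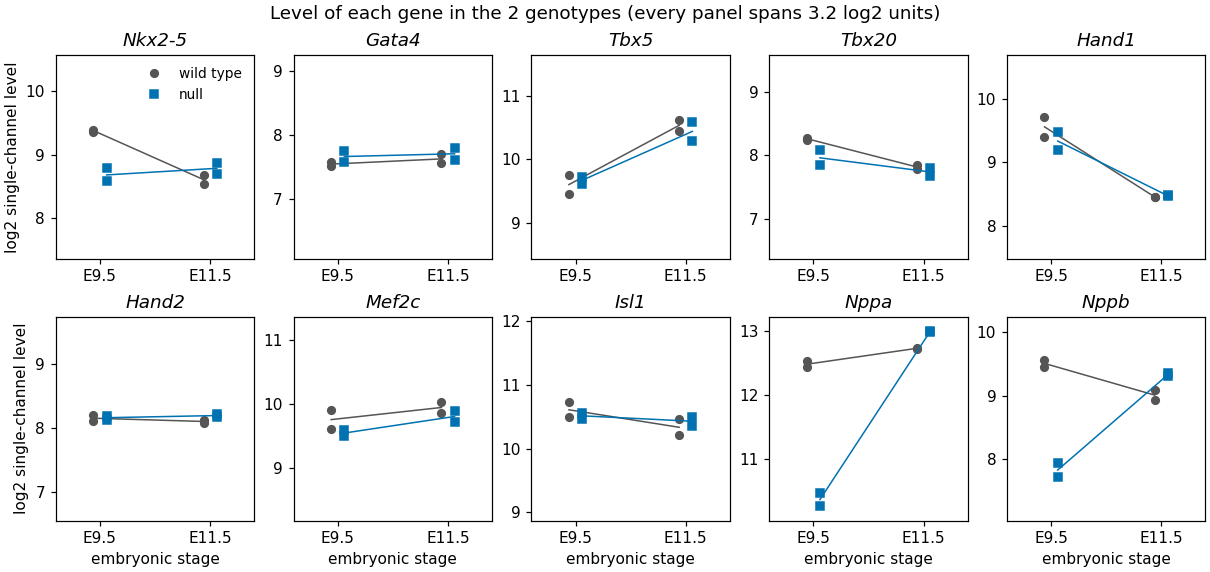
Each panel shows the log2 single-channel level of 1 member at E9.5 and E11.5, with a point per array and a line between group means, for wild type (circles) and null RNA (squares). All panels have the same height in log2 units, and genotypes part clearly at E9.5 for Nppa (10.36 against 12.48), Nppb (7.83 against 9.51) and Nkx2-5 (8.68 against 9.38).

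A list of 26 contractile and conduction genes was read, 25 of them tested. Their regulation by the members was not tested. At E9.5, 21 of 25 were lower in the null RNA, against 14.8% of all genes, and 0 were higher. The median log2 ratio of the 25 was -1.11. The furthest were Myl2, the ventricular regulatory light chain (-3.43; limma adjusted p = 9.04e-19), Myh7, the slow myosin heavy chain (-2.44), Mybpc3, which binds myosin in the thick filament (-2.04), and Myl3, a ventricular essential light chain (-1.84). The 4 not called were the pacemaker channel Hcn4 (0.11), the calcium store protein Casq2 (0.07), the gap junction gene Gja1 (0.01) and sarcolipin, Sln (-0.01). Against 3.67% of all genes called higher and 5.64% lower, 4 of 25 were higher and 1 lower at E11.5. These included the troponin gene Tnnc1 (0.50), Myl2 (0.41) and Smpx (0.35) among the higher, and Sln (-0.22) was the lower.

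Other cardiac regulators, 34 tested of 35 listed, had a median of -0.06 at E9.5. Of the 34, 10 were lower and 3 higher, against 14.8% and 9.88% of all genes. Prdm16, a zinc finger regulator that many tissues express, was higher (2.26; limma adjusted p = 3.41e-16). Hopx, a homeodomain-only protein (-0.63), Gata6, a relative of Gata4 (-0.58), and Zfpm1, a GATA cofactor (-0.42), were lower. At E11.5, 2 were higher and 1 lower, against 3.67% and 5.64% of all genes. Myocd, the SRF coactivator of muscle genes (0.75, limma adjusted p = 5.88e-08), and Irx4, a ventricular homeobox factor (0.22), were higher, and Zfpm1 (-0.33) was lower. Myocd was also called higher at E9.5 (0.37). Its ratios were 0.61 and 0.13 on the E9.5 arrays and 1.09 and 0.41 on those of E11.5. In both stages the array with the null RNA in Cy5 gave the higher Myocd ratio.

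The natriuretic system, 12 tested of 13 listed, holds the third peptide gene, receptors, enzymes that process or degrade the peptides, and genes of cyclic GMP signalling. Npr1, the receptor gene for both member peptides, did not pass the filter on dim signals. At E9.5 3 were lower and 3 higher, against 14.8% and 9.88% of all genes, with a median of 0.09 over the list. Furin, a convertase that cuts peptide precursors (-0.33), the clearance receptor gene Npr3 (-0.19) and Gucy1a1, a subunit of the nitric oxide-sensitive guanylyl cyclase (-0.48), were lower. Mme, the peptidase neprilysin (0.25), the convertase gene Pcsk6 (0.21) and the receptor gene Npr2 (0.19) were higher. Corin, which activates the NPPA precursor, was not called (0.11; limma adjusted p = 0.236), and neither was Nppc (0.09). At E11.5 Gucy1a1 (-0.22) and Npr3 (-0.21) were lower and 0 of 12 higher. Over all genes, 5.64% were called lower and 3.67% higher there.

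Signals that pattern the heart, 22 tested of 23 listed, had 6 lower and 1 higher at E9.5, against 14.8% and 9.88% of all genes. Wnt2, a ligand of the inflow region (-0.83; limma adjusted p = 3.28e-09), endothelin, Edn1 (-0.30), and the retinoic acid enzyme gene Aldh1a2 (-0.30) were lower, and the neuregulin receptor gene Erbb4 (0.24) was higher. At E11.5 Wnt2 (0.33) and Fgf8 (0.32) were higher, and Bmp7 (-0.25) and the matrix gene Vcan (-0.21) were lower. Over all genes, 3.67% were called higher and 5.64% lower at that stage.

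Among markers of other tissues, the ratio rose from E9.5 to E11.5 in 10 of 11 for yolk sac endoderm and in 0 of 7 for endothelium. It fell in 4 of 10 for neurons. Over all genes, 8.32% were called higher and 5.23% lower in this comparison. Of 11 yolk sac endoderm markers, 10 were lower at E9.5 in the null RNA, against 14.8% of all genes. The median of the 11 was -3.01, and the leading ones were Cubn (-4.25), Apob (-3.40), Afp (-3.37) and Rbp4 (-3.32). Sox17 (-0.30) and Foxa2 (-0.20) moved least of those called, and Hnf4a (0.05) was not called. The summed level of the 11 was 17800 to 21300 in the null RNA and 159000 to 161000 in wild type at E9.5. At E11.5 it was 77300 to 77400 against 76200 to 84900. This linear sum is weighted to the brightest markers, Afp and Rbp4, with wild-type log2 levels of 16.71 and 14.63 at E9.5. The sum thus stood apart by genotype at the stage at which Nppa, Nppb, Nkx2-5, Tbx20, Hand1 and Mef2c were lower, and its part in those ratios was not tested. At E11.5 2 of the 11 were lower, Apob (-0.61) and Apoa1 (-0.26), against 5.64% of all genes. All 11 were well above background on at least 1 array of every group.

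Limb bud markers, which matter for Tbx5 and Hand2, had 3 of 6 lower and 1 higher at E9.5. Hoxd13 (-1.38), Pitx1 (-1.14) and Tbx4 (-0.72) were lower and Prrx1 (0.25) was higher, while Lhx9 (-0.07) and Shh (0.12) were not called. The summed level of the 6 was 8020 to 9280 in the null RNA and 11000 to 14000 in wild type. Pitx1 had the highest log2 level of the 6 in wild type at E9.5 (12.73), and the list does not separate forelimb from hindlimb. Tbx4 was well above background on neither E9.5 array in the null RNA. Skeletal muscle markers, which matter for Mef2c, had 2 of 8 higher, Myod1 (0.27) and Chrna1 (0.19), and 1 lower, Acta1 (-1.09), an actin gene that embryonic heart also expresses. Endothelial markers had 2 of 7 lower, Kdr (-0.33) and Emcn (-0.18). Trophoblast markers, 4 tested, had Prl3d1 (1.06) and Ascl2 (0.22) higher and Plac1 (-0.51) lower. Over all genes at E9.5, 14.8% were called lower and 9.88% higher. The part of these tissues in the members' ratios was not tested.

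**Figure D4:**
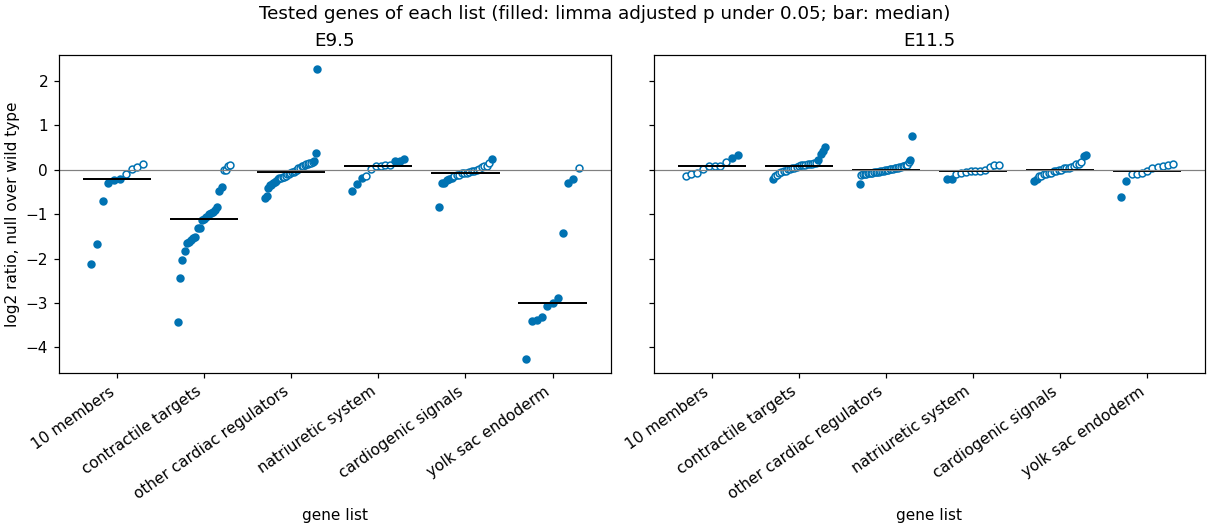
Each point is the log2 ratio of null over wild type of 1 tested gene at E9.5 (left) or E11.5 (right), by gene list; filled points passed an adjusted p under 0.05 and bars are medians. At E9.5 the medians of the 6 lists plotted run from 0.09 for the natriuretic system to -3.01 for yolk sac endoderm. That of the contractile and conduction genes, labelled contractile targets, is -1.11. At E11.5 the medians lie near 0.

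Genes whose 4 group means followed a member most closely were found by the root mean square difference of log2 levels, each gene centred on its own mean. Nearest to Nkx2-5 were Myo6 (0.037), Slc22a18 (0.040) and 0610040J01Rik (0.041). Nearest to Isl1 were Pnpla2 (0.0076), Sec1 (0.0080) and Prok1 (0.0080), as is easily reached by genes that change little. Nearest to Nppa were Prim2 (0.17), Hoxd13 (0.28) and F2 (0.30), of which Prim2 had a ratio of -2.50 at E9.5 against 0.03 at E11.5. The likeness rests on 4 points per gene, from 4 arrays.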

How the data were processed

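Spot intensity values in both channels of 4 Agilent arrays were deposited as Feature Extraction output (version 9.1.3.1 per the file headers, 9.5.3.1 per the submitters' processing notes). The authors' deposited value table holds log10 ratios; these equal log10 of null over wild-type processed signal within 1e-04 for at least 99.995% of 40929 probes spotted once. Per the labels' protocols, total RNA was amplified linearly from oligo-dT primers. No source used here names a genome build for the probes.

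From the mean and local background intensities, normexp correction (offset 50) and loess within arrays were computed with limma 3.58.1 in R 4.3.3. Of 41174 gene probes, 293 flagged were left out, spots of a probe were averaged, and 24993 were kept, those well above background for 1 genotype or both on each of the paired arrays of at least 1 stage. The brightest kept probe stood for a gene. limma was fitted to all 17160 genes with a term for each stage and 1 for dye, leaving 1 residual degree of freedom with a prior of 18.4; p-values were Benjamini-Hochberg adjusted over all genes. Its error is how far the dye difference departs between stages. The shared and stage fits used 2 averages each (prior 2.85). All 4 arrays lay on 1 slide and 1 scan. Named genes were all members, and per list and stage the 4 called genes with the largest ratio, or else the 2 largest; others named beyond this (genes not called, and remaining called genes of a list) were chosen after their values were seen. The members and lists were chosen with earlier results of these data known. The scripts were tested on simulated data. The number of arrays limits the precision.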

Additional observations from a re-analysis of the deposited data

Results flagged for a closer look

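In 3 members the ratio of null over wild type differed between the stages by the test of the difference itself. The E11.5 ratio minus the E9.5 ratio was 2.393 for Nppa, 1.997 for Nppb and 0.8736 for Nkx2-5, on the log2 scale (limma, adjusted p = 4.49e-14, 1.53e-12 and 3.67e-07). Both E9.5 arrays were below 0 and both E11.5 arrays above 0 for each of the 3 genes, though for Nkx2-5 the E11.5 ratios were 0.33 and 0.02. With no dye term the Nkx2-5 difference was not called (limma adjusted p = 0.121), while those of Nppa and Nppb were. With 2 arrays per stage and possibly 1 RNA pair per stage, the difference is between the RNAs hybridised.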

How the results depend on the processing

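How many of the 10 members were called changed with the dye term, the normalization, the source of the ratio and the arrays used; leaving out an array also removes the dye term. At E9.5 6 were called lower; 3 were called with median centring, with the authors' value table and with no dye term, and 2 to 3 when 1 array was left out (2 without E9.5 replicate 2). At E11.5 2 were called; 0 were called with median centring, the Feature Extraction log ratio, the authors' value table, no dye term or any 1 array left out (0 to 0), and 1 with trend and robust moderation. In the stage comparison 3 were called, and 6 with the separate-channel fit. Over all genes, E9.5 calls fell from 4231 to 459 with no dye term, and E11.5 calls from 1597 to 28. The cause was not tested beyond the change of setting itself. Of 550 alternative values for 40 single-gene results, 477 kept direction and side of the threshold, 51 lost the call, 9 gained it and 13 had the other sign, all among ratios that were not called. With the mean of all kept probes Hand2 gave -0.0087 at E9.5 and 0.0030 between stages, and with median centring Tbx5 gave 0.0397 at E11.5. Leaving out 1 array gave the other ranges with a change of sign: Gata4 -0.0899 to 0.25 at E11.5 and -0.21 to 0.13 for the difference, Hand2 -0.0122 to 0.0287 at E9.5 and -0.0490 to 0.0318 between stages, Mef2c -0.32 to 0.0361 at E11.5 and -0.11 to 0.25 for the difference, and Tbx5 -0.0214 to 0.16 at E9.5. The slide and scan block was not run, since all 4 arrays share 1 slide and 1 scan. Both genotypes share each array, and the dye term already pairs arrays of the same orientation across stages, so the fit with no dye term is the one without that pairing.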
